A study of Mus musculus with 6 samples.

Results

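The dual-specificity MAP kinase phosphatases examined here are 10 genes, Dusp1, Dusp2, Dusp3, Dusp4, Dusp5, Dusp6, Dusp7, Dusp10, Dusp16 and Dusp22, taken by symbol from a deposited table of 34652 genes. All 10 were in the table. The libraries came from cerebrospinal fluid cells of a mouse model of leptomeningeal metastasis, collected on day 12 after inoculation of LLC-LeptoM cells, a derivative of the mouse Lewis lung carcinoma that grows in the leptomeninges. Every mouse was Cx3cr1CreER:mTmG and received tamoxifen, so that cells expressing Cx3cr1 at the time of treatment switched to a green membrane reporter. Resident macrophages, called dLAMs in the labels, were sorted as CD45+CD11b+F4/80+Ly6C- cells with green fluorescence (3 libraries). Monocyte-macrophages were a mixture of sorted cells without green fluorescence, either F4/80+ or F4/80 low and Ly6C+ (3 libraries). The sources used here give no age or strain background of the mice. Cre acts wherever Cx3cr1 is expressed, and the green gate is therefore not specific to 1 macrophage type. The comparison asks how transcripts of these phosphatases differ between both macrophage populations of the same fluid.

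MAP kinases are switched on when a kinase adds phosphate to a threonine and a tyrosine in their activation loop, and dual-specificity phosphatases remove phosphate from both residues. The classical enzymes bind their kinase through a docking domain. They are grouped as inducible nuclear enzymes (Dusp1, Dusp2, Dusp4, Dusp5), cytoplasmic enzymes that prefer ERK (Dusp6, Dusp7), and enzymes that prefer the stress kinases JNK and p38 (Dusp10, Dusp16). Dusp3 and Dusp22 are small atypical enzymes without that docking domain. In macrophages several of the genes are transcribed through the kinases that their products inactivate, and Dusp1 is best known for limiting cytokine production after Toll-like receptor stimulation.

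Promoter stretches are shown for Dusp5, one of the genes that were higher, and for Dusp1, the inducible gene that was not, because each held a known binding motif of a factor downstream of a kinase cascade. Windows from 250 bases before to 50 after the RefSeq transcription start (GRCm38.p6, the same assembly as mm10) were matched for 9 of the 10 genes, all but Dusp4. The stretches run from 160 to 41 bases before the start, 5′ to 3′ on the strand of the gene. For Dusp5 the stretch is chr19:53528985-53529104 (plus strand), and for Dusp1 it is chr17:26508513-26508632 (minus strand). Capitals mark serum response elements (bound by serum response factor) in Dusp5 and a cyclic AMP response element in Dusp1.
Dusp5: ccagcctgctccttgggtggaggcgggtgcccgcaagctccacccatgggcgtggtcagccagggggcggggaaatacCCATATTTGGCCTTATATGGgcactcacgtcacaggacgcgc
Dusp1: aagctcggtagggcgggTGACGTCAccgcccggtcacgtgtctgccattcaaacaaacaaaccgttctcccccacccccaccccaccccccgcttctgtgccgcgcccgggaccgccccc
In Dusp5 the serum response elements abutted, at 82 to 73 and 72 to 63 bases before the start. The element in Dusp1 lay 143 to 136 bases before the start. Both strands of the whole 300-base windows were searched. The serum response element was found in 1 of the 9 windows and in 1.63% of all 32851 promoter windows of that length, and TGACGTCA in 1 of 9 and in 1.79%. Its half-site TGACG was found in 4 of the 9 windows and in 20.8% of all, among them Dusp5, where it lies 55 to 51 bases before the start and is left in lower case. The AP-1 site TGANTCA and the NF-κB-like site GGGANTTCC were found in 0 of the 9 windows, against 7.81% and 1.68% of all windows. A match describes letters and not occupancy.

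The 6 libraries held an estimated 1.23e+07 to 1.70e+07 fragments, read from the steps that single fragments leave among low FPKM values (the unit of the table: fragments scaled by gene length and library total). Between 10281 and 11470 genes reached 1 FPKM. All 10 listed macrophage and monocyte genes were detected in every library, 3 of them higher in resident macrophages, 1 lower and 6 not called. Csf1r, the receptor for colony-stimulating factor 1, lay between 219 and 276 FPKM in resident macrophages and between 104 and 147 in monocyte-macrophages. Lyz2 (lysozyme) was lower in resident macrophages, between 3115 and 4533 FPKM against 6585 and 9972, and Mertk, a receptor for the uptake of dying cells, was higher, between 17.1 and 18.9 FPKM against 0.789 and 3.65. Markers of other cells were higher in resident macrophages: 12 of 12 tested T cell markers, 4 of 4 natural killer cell markers, 4 of 4 B and plasma cell markers, 9 of 10 dendritic cell markers, 3 of 3 mast cell and basophil markers and 3 of 3 carcinoma markers were called higher. Of these markers 1, 2, 2, 7, 3 and 2, in the same order, were under 1 FPKM in every monocyte-macrophage library and passed the filter only through the resident macrophages, so they had to differ and their counts are no measure of how many markers moved. The full lists held 12, 7, 8, 10, 7 and 6 markers, in the same order, and those not counted as tested did not reach the filter. Of these untested markers, Krt8 and Krt19 (carcinoma) and Ms4a2 (mast cell and basophil) overlapped between groups. Krt7 (carcinoma) was lower in resident macrophages, with means of 0.164 and 0.305 FPKM. The remaining untested markers were higher in every resident macrophage library. The tested mast cell and basophil markers were Cpa3, Mcpt4 and Tpsb2. Of 9 neutrophil markers 5 were lower. Over all genes tested, 19.9% were called higher and 10.6% lower. The summed FPKM of the 12 T cell markers lay between 198 and 257 in resident macrophages and between 6.34 and 36.3 in monocyte-macrophages. Summed B cell markers lay between 19.3 and 33.1 against 1.49 and 4.69, with Blk listed at 0 in every monocyte-macrophage library. Summed natural killer cell markers lay between 13.7 and 22.7 against 2.06 and 4.90, dendritic cell markers between 136 and 210 against 15.4 and 18.6, and mast cell and basophil markers between 24.7 and 62.5 against 0.285 and 0.960. Carcinoma markers lay between 27.0 and 31.8 against 1.99 and 3.18, and neutrophil markers between 1236 and 1620 against 1967 and 11880. Lymphocytes also transcribe several members, among them Dusp2, Dusp4, Dusp5, Dusp10 and Dusp22. The part of lymphocytes, or of any other cell type above, in the values of any member was not tested. In sorted bulk samples, fewer cells of a type and less RNA per cell cannot be told apart. Y-linked RNA (Ddx3y) was more abundant in resident macrophage library 3 (10.1 FPKM) and in library 2 of the monocyte-macrophages (10.6) than in the others, which lay between 1.56 and 2.68.

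Of the 10 phosphatase genes, 6 were higher in resident macrophages (Dusp2, Dusp4, Dusp5, Dusp6, Dusp10 and Dusp16), 0 were lower (also 0 at an unadjusted p under 0.05 by limma) and 4 did not pass. The background share of calls in the same fit was 19.9% higher and 10.6% lower, together 30.5%, of 11317 tested genes (limma on log2(FPKM + 1), Benjamini-Hochberg adjusted p under 0.05 over all genes tested). All 10 genes passed the filter on low values (1 FPKM in at least 3 of 6 libraries). Dusp4 did so through its 3 resident macrophage libraries and 1 monocyte-macrophage library. The median log2 fold change of the 10 genes, resident minus monocyte-macrophages, was 0.55, against 0.06 over all genes tested. For the same 6 genes every resident macrophage library lay above every monocyte-macrophage library, a pattern seen for 29.3% of all genes tested. With 3 libraries against 3, an exact two-sided permutation test of a single gene cannot go below p = 0.10, the value that each of these 6 genes reached.

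**Figure D1:**
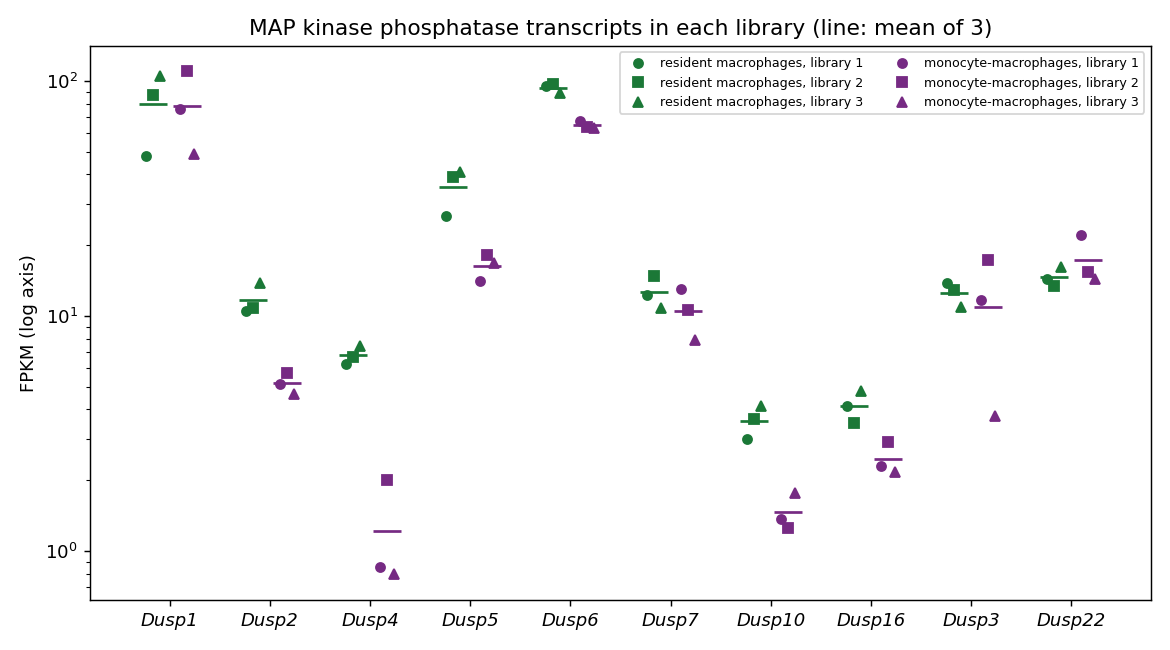
FPKM of the 10 phosphatase genes (log axis) in the 3 resident macrophage libraries (green) and the 3 monocyte-macrophage libraries (purple), with the group mean as a line and the library number as the marker shape. Dusp4 stands between 6.24 and 7.44 FPKM in resident macrophages and between 0.793 and 1.999 in monocyte-macrophages, while the Dusp1 points of both groups cover the same range.

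Among the inducible nuclear enzymes, Dusp4 (MKP-2; chromosome 8, 34807297 to 34819894 on GRCm38) differed most. It stood at 6.24, 6.70 and 7.44 FPKM in resident macrophage libraries 1, 2 and 3 and at 0.853, 1.999 and 0.793 in monocyte-macrophage libraries 1, 2 and 3. The groups did not overlap, and monocyte-macrophage library 2 was the highest of its group. The means of 6.79 ± 0.602 and 1.22 ± 0.679 FPKM (SD, n = 3) were 5.59-fold apart, and the log2 fold change was 1.85 (SE 0.21, adjusted p = 6.2e-04 by limma). The lowest value rested on an estimated 32 fragments. In the order of the libraries given above, the summed T cell markers were 257, 198 and 229 FPKM against 6.34, 36.3 and 29.5. Of the 12 markers 8 were highest in library 2 among the monocyte-macrophages, as Dusp4 was. The trait was not particular to T cell markers. It held for 6 of the 10 phosphatase genes and 19 of 21 immediate early genes, but for 1 of 10 macrophage genes and 3 of 9 neutrophil markers. It also held for 1 of 4 natural killer cell, 0 of 4 B and plasma cell and 3 of 10 dendritic cell markers. Of mast cell and basophil markers 0 of 3 had it, and of carcinoma markers 1 of 3. Its share over all genes tested was not computed. In resident macrophages the order differed, as Dusp4 was lowest in library 1, where summed T cell markers were highest. Lck, a T cell kinase, stood at 0.295, 1.63 and 0.50 FPKM in monocyte-macrophage libraries 1, 2 and 3, and Zap70 at 0.0871, 1.15 and 0.154, while Cd3e was at 1.17, 5.20 and 5.15.

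Dusp5, a nuclear phosphatase selective for ERK (chromosome 19, 53529109 to 53542431), was the third most abundant member in resident macrophages. Its values were 26.6, 38.9 and 40.8 FPKM in resident macrophages and 14.1, 18.1 and 16.7 in monocyte-macrophages. All resident macrophage libraries lay above all monocyte-macrophage libraries, with resident macrophage library 1 nearest to them. The means were 35.5 ± 7.68 and 16.3 ± 2.05 FPKM (SD, n = 3), a 2.18-fold difference (log2 fold change 1.06, SE 0.18, adjusted p = 0.0034 by limma). An annotated antisense gene shares 547 exon bases with Dusp5, and since the strand handling of the counting is not given in the sources used here, reads of both cannot be told apart. This is the gene whose promoter stretch carries the abutting serum response elements shown above.

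Dusp2 (PAC-1; chromosome 2, 127336159 to 127338376), a nuclear enzyme first described in activated lymphocytes, moved by a similar step from a lower level. It stood at 10.5, 10.8 and 13.8 FPKM among resident macrophages and at 5.14, 5.69 and 4.63 in monocyte-macrophages. The spread within each group was small beside the gap between groups. The means were 11.7 ± 1.80 and 5.15 ± 0.533 FPKM (SD, n = 3), with a log2 fold change of 1.04 (SE 0.14, adjusted p = 0.0011 by limma).

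Dusp1 (MKP-1; chromosome 17, 26505590 to 26562128), which inactivates p38, JNK and ERK in the nucleus, varied among libraries of 1 group by more than the groups differed. It stood at 47.9, 86.8 and 105 FPKM among resident macrophages and at 76.0, 110 and 48.7 in monocyte-macrophages. The lowest libraries of both groups were nearly equal and so were the highest. The means were 79.9 ± 29.2 and 78.2 ± 30.7 FPKM (SD, n = 3), and the log2 fold change of 0.03 (95% interval from -0.80 to 0.87, adjusted p = 0.96 by limma) did not pass. The interval covers differences as large as that of Dusp6 or Dusp16 in either direction. The libraries highest in Dusp1 within each group were those with more Y-linked RNA. Its exons share 11 bases with those of Ergic1 on the opposite strand. The span given for Dusp1 is that of GENCODE. The promoter stretch shown above was set by the RefSeq start and lies inside that span.

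**Figure D2:**
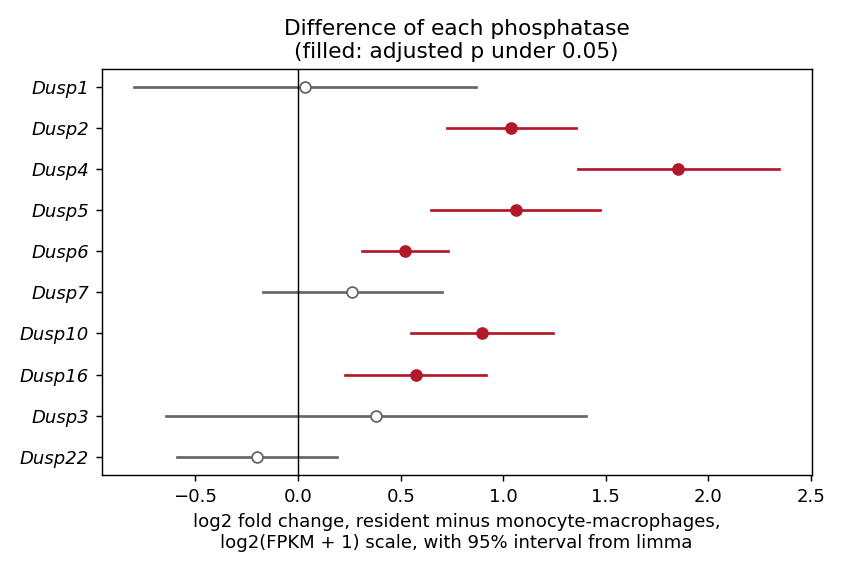
Log2 fold change of each phosphatase gene, resident minus monocyte-macrophages, of log2(FPKM + 1) values, with the 95% interval from limma as a horizontal line; filled red points passed at an adjusted p under 0.05. Dusp4 stands farthest from 0 at 1.85, and the intervals of Dusp1, Dusp7, Dusp3 and Dusp22 cross 0.

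The cytoplasmic enzymes differed from each other. Dusp6 (MKP-3; chromosome 10, 99263231 to 99267489), the feedback phosphatase of ERK, stood at 94.7, 96.8 and 88.7 FPKM among resident macrophages and at 67.2, 63.6 and 63.3 in monocyte-macrophages. Its libraries were tight within each group and did not overlap. The means were 93.4 ± 4.21 and 64.7 ± 2.21 FPKM (SD, n = 3), a 1.44-fold difference (log2 fold change 0.52, SE 0.09, adjusted p = 0.0041 by limma). It had the lowest SE of the 10 genes, and its lowest library held an estimated 2800 fragments. Dusp7 (MKP-X; chromosome 9, 106368632 to 106375724), also a cytoplasmic ERK phosphatase, stood at 12.3, 14.8 and 10.8 FPKM against 13.0, 10.5 and 7.85, and the groups overlapped. Its log2 fold change of 0.26 (95% interval from -0.17 to 0.70, adjusted p = 0.34 by limma) did not pass.

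Both enzymes that prefer JNK and p38 were higher in resident macrophages at low levels. Dusp10 (MKP-5; chromosome 1, 184013302 to 184075636) stood at 2.98, 3.65 and 4.12 FPKM against 1.37, 1.25 and 1.75. The groups were apart, and the means were 3.58 ± 0.574 and 1.46 ± 0.262 FPKM (SD, n = 3), a log2 fold change of 0.90 (SE 0.15, adjusted p = 0.0034 by limma). Dusp16 (MKP-7; chromosome 6, 134715468 to 134792625) stood at 4.13, 3.49 and 4.80 FPKM against 2.30, 2.89 and 2.16. The gap between the nearest libraries of both groups was smaller than the range within either group. The means were 4.14 ± 0.654 and 2.45 ± 0.389 FPKM (SD, n = 3), a log2 fold change of 0.57 (SE 0.15, adjusted p = 0.023 by limma). The call of Dusp16 ended without resident macrophage library 1 (adjusted p = 0.082) or 3 (adjusted p = 0.092), without monocyte-macrophage library 1 (adjusted p = 0.056) or 3 (adjusted p = 0.061), and with quantile normalization (adjusted p = 0.055), all by limma.

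The atypical enzymes did not pass. Dusp3 (VHR; chromosome 11, 101971143 to 101987013), a small phosphatase of ERK and JNK, stood at 13.7, 12.8 and 10.9 FPKM among resident macrophages and at 11.7, 17.3 and 3.75 in monocyte-macrophages. Monocyte-macrophage library 3 was far below the other 5. The log2 fold change was 0.38 (95% interval from -0.64 to 1.40, adjusted p = 0.56 by limma) and turned to -0.18 without that library. An antisense gene, Gm20659, shares 604 exon bases with Dusp3 and was listed at 0 in 5 libraries and at 0.242 FPKM in monocyte-macrophage library 1. Dusp22 (chromosome 13, 30659999 to 30711231), known for acting on the JNK pathway and on the kinase Lck in T cells, stood at 14.3, 13.4 and 16.2 FPKM against 22.1, 15.4 and 14.3. It was the only member with a fold change below 0, at -0.20 (95% interval from -0.59 to 0.19, adjusted p = 0.41 by limma), and the groups overlapped.

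Since FPKM is scaled by gene length, levels can be set side by side between genes, but only roughly. The gene lengths and strand handling behind the values are not given, and antisense genes share exon bases with Dusp5 and Dusp3. In resident macrophages Dusp6 and Dusp1 led (93.4 and 79.9 FPKM) with ranges that overlapped, followed by Dusp5 at 35.5, apart from both neighbours. Dusp22, Dusp7, Dusp3 and Dusp2 formed a group between 14.7 and 11.7 FPKM in which each range overlapped the next. Dusp4 at 6.79 stood apart, and Dusp16 and Dusp10 (4.14 and 3.58) overlapped. In monocyte-macrophages Dusp1 and Dusp6 led again (78.2 and 64.7 FPKM, overlapping). There Dusp5 at 16.3 FPKM overlapped Dusp22 at 17.3 and Dusp3 at 10.9, the latter also overlapping Dusp7 at 10.5. Dusp2 at 5.15 and Dusp16 at 2.45 were apart from their neighbours, and Dusp10 and Dusp4, at 1.46 and 1.22, overlapped as the lowest. Dusp4 was thus eighth of 10 in resident macrophages and last in monocyte-macrophages. Dusp1 and Dusp6 together made up 61.1%, 63.7% and 64.0% of the summed FPKM of the 10 genes in resident macrophages and 67.0%, 70.3% and 68.3% in monocyte-macrophages. The sum itself was 233, 288 and 303 FPKM against 214, 247 and 164, so that the groups overlapped.

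Genes most like Dusp4 and Dusp5 were sought as the 3 tested genes at the smallest Euclidean distance over the 6 libraries, after each gene's log2(FPKM + 1) was centred on its own mean. For Dusp4 these included Zfpm1, a cofactor of GATA factors (distance 0.18), and Spire1, an actin nucleator (0.30). Zfpm1 stood at 6.49, 6.85 and 6.67 FPKM among resident macrophages and at 0.803, 2.10 and 0.907 among monocyte-macrophages, with library 2 again the highest of its group. The search itself favours such a shared order. For Dusp5 they were Strip2 (0.19), 6720464F23Rik (0.29) and Atp1b1, a subunit of the sodium pump (0.29). All 3 were under 1 FPKM in every monocyte-macrophage library. They passed the filter only through the resident macrophages, so a difference in the direction of Dusp5 was fixed in advance. Strip2 was lower in level, at 1.22, 2.14 and 2.19 FPKM against 0.144, 0.297 and 0.357.

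Dusp1 was compared in the same way after its values had been seen. Its second nearest gene, at a distance of 0.30, was Egr1, an immediate early transcription factor of the ERK cascade. The nearest was the clone-named gene RP24-359O2.8 (0.23), and the third was Apol8 (0.32). Egr1 stood at 36.2, 58.9 and 69.6 FPKM among resident macrophages and at 62.2, 77.4 and 30.7 in monocyte-macrophages, with the same lowest and highest library in each group as Dusp1. Because Egr1 was found by its likeness over these same libraries, the shared order was built into the search and is no support for a link. From the 21 listed immediate early genes, Zfp36, Nr4a1 and Jun were picked after their values were seen. Zfp36, which encodes the mRNA decay factor tristetraprolin, stood at 234, 361 and 540 against 440, 651 and 251 FPKM. Nr4a1, an orphan nuclear receptor gene, stood at 21.0, 33.5 and 52.5 against 43.3, 74.5 and 23.8 FPKM. Jun stood at 301, 426 and 506 against 302, 427 and 189 FPKM. In each of these genes library 1 was the lowest of the resident macrophages and library 3 the lowest of the monocyte-macrophages. Not every immediate early gene shared the order of Dusp1. Fosb stood at 17.7, 62.9 and 49.8 against 42.5, 53.6 and 38.5 FPKM. Klf4 stood at 34.7, 65.2 and 51.5 against 80.7, 67.8 and 56.9 FPKM. Immediate early genes are also induced when cells are handled, and the part of handling in these values was not tested.

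**Figure D3:**
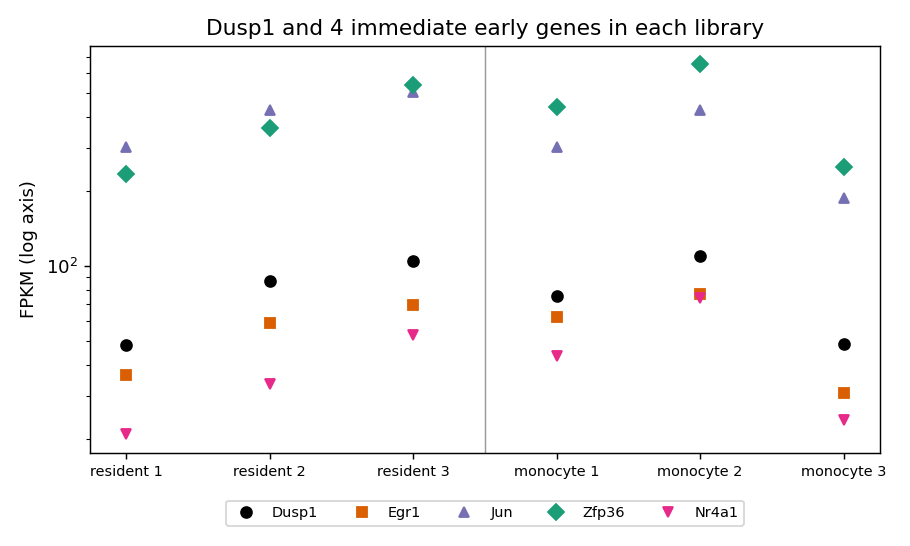
FPKM (log axis) of Dusp1, Egr1, Jun, Zfp36 and Nr4a1 in the 3 resident macrophage libraries (left) and the 3 monocyte-macrophage libraries (right). In all 5 genes library 3 of the resident macrophages and library 2 of the monocyte-macrophages are the highest of their groups; the 4 genes beside Dusp1 were chosen after their values were seen.

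Sprouty and Spred proteins, like Dusp6, restrain the cascade from Ras to ERK. Of 7 listed genes 4 could be tested, of which 3 were higher and 0 lower by limma (0 lower at an unadjusted p under 0.05), beside 19.9% and 10.6% of all genes. Spry1 was under 1 FPKM in every monocyte-macrophage library and passed the filter only through the resident macrophages, so it had to differ. Spry1 stood at 2.15, 2.30 and 2.44 FPKM among resident macrophages and at 0.263, 0.406 and 0.759 in monocyte-macrophages (log2 fold change 1.17, adjusted p = 0.0012 by limma). Spred1 stood at 26.0, 29.5 and 26.3 FPKM against 12.7, 13.9 and 13.5 (0.97, adjusted p = 3.3e-04 by limma). Spred2 had a log2 fold change of 0.70 (adjusted p = 0.0093 by limma). Spry2 overlapped between groups, at 2.63, 1.64 and 2.36 FPKM against 1.40, 4.84 and 3.35, and did not pass.

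Most other DUSP genes were too low to be tested. Of 15 other DUSP family and Styx genes only 3 reached the filter, Dusp11, Dusp23 and Dusp28. By limma 0 were called (0 at an unadjusted p under 0.05). In the same fit 19.9% of all genes tested were higher and 10.6% lower. Without a filter 4 of the 15 were called higher, and 1 of the 3 was lower with median-of-ratios scaling. Over all genes 2888 were higher without a filter, against 2249 in the fit reported here. With median-of-ratios scaling 1669 were lower, against 1204. Dusp11, which acts on RNA, was at 12.3, 13.0 and 13.7 FPKM against 14.6, 14.9 and 16.3. Dusp9, a cytoplasmic ERK phosphatase like Dusp6 and Dusp7, was below the filter, at 0.273, 0.567 and 0.503 FPKM against 0, 0.0523 and 0. Of 6 tested phosphatases of MAP kinases from other families, 1 was lower and 0 higher by limma (1 higher at an unadjusted p under 0.05, Ptpn7; 1 called higher without a filter, and 2 lower with median-of-ratios scaling). Ppp2cb, a catalytic subunit of protein phosphatase 2A, fell by 0.99 on the log2 scale, from 63.9 ± 10.2 to 31.5 ± 1.90 FPKM (SD, n = 3; adjusted p = 0.0012 by limma). Ptpn7, a tyrosine phosphatase of ERK and p38 in blood cells, was at 10.3, 10.1 and 9.02 FPKM against 6.20, 8.70 and 6.98 and did not pass (adjusted p = 0.066 by limma).

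The kinases that these phosphatases oppose showed 0 higher and 1 lower among 9 tested MAP kinases by limma (0 higher at an unadjusted p under 0.05, median log2 fold change -0.24). Beside this count and that of the MAP kinase kinases stand 19.9% higher and 10.6% lower of all genes tested. The lower count of MAP kinases is near that share. Mapk14, which encodes p38α, stood at 30.4, 32.0 and 30.4 FPKM among resident macrophages and at 45.6, 42.3 and 46.0 in monocyte-macrophages (log2 fold change -0.51, SE 0.09, adjusted p = 0.0036 by limma). Mapk3, an ERK gene, did not pass, with 30.6, 25.5 and 25.4 against 35.9, 29.0 and 30.7 FPKM. Of 7 MAP kinase kinases 2 were lower and 0 higher (0 higher at an unadjusted p under 0.05; median -0.11): Map2k4, an activator of JNK and p38 (-0.53, adjusted p = 0.012), and Map2k6, an activator of p38 (-0.44, adjusted p = 0.031), both by limma. The call of Map2k4 ended without resident macrophage library 2 (adjusted p = 0.056). That of Map2k6 ended when any resident macrophage library or monocyte-macrophage library 1 was left out (adjusted p between 0.079 and 0.11).

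Among 14 tested MAP kinase kinase kinases 2 were higher and 3 lower (median -0.15), and 6 were lower with median-of-ratios scaling. With that scaling more of all genes were lower too, 1669 against 1204 as deposited. As deposited, 19.9% of all genes tested were higher and 10.6% lower, also to be set beside the kinases activated by MAP kinases. Map3k5 and Map3k6, the stress-activated kinases ASK1 and ASK2, were lower by limma, with log2 fold changes of -0.64 (adjusted p = 0.0029) and -0.87 (adjusted p = 0.0057). Braf, which feeds the ERK cascade, had a log2 fold change of -0.73 (adjusted p = 0.019), a call that ended when resident macrophage library 1 or 2 was left out, or library 3 of the monocyte-macrophages (adjusted p between 0.055 and 0.083). Map3k14, the NF-κB-inducing kinase, was higher by 0.57 (adjusted p = 0.016), a call that ended without resident macrophage library 2 or 3 (adjusted p = 0.072 and 0.067). Map3k4, named outside the rule for named genes, was higher by 0.48 (adjusted p = 0.010) and lost its call without resident macrophage library 2 (adjusted p = 0.055). Of 10 kinases activated by MAP kinases, 1 was higher and 0 lower by limma (1 lower at an unadjusted p under 0.05, Mapkapk3, and 2 called lower with median-of-ratios scaling): Rps6ka4 (MSK2), which phosphorylates CREB and histone H3 (29.6 ± 2.69 and 18.8 ± 2.16 FPKM; SD, n = 3), with a log2 fold change of 0.63 (adjusted p = 0.0055 by limma).

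Of 21 tested immediate early genes 3 were higher and 2 lower, and 16 did not pass (median -0.17). Beside this stand 19.9% higher and 10.6% lower of all genes tested, so these counts do not exceed those shares. Myc was higher by 1.48 (adjusted p = 2.7e-04 by limma), with 5.65 ± 0.802 against 1.38 ± 0.190 FPKM (SD, n = 3). Egr2 was higher by 1.30 and Jund by 0.82. Fosl1 and Fosl2, members of the Fos family, were lower, with log2 fold changes of -0.89 and -0.76; Fosl2 was named outside the rule for named genes. The call of Fosl1 ended without resident macrophage library 1 (adjusted p = 0.065 by limma). Fos itself was at 111, 239 and 286 FPKM against 298, 395 and 232 and did not pass.

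**Figure D4:**
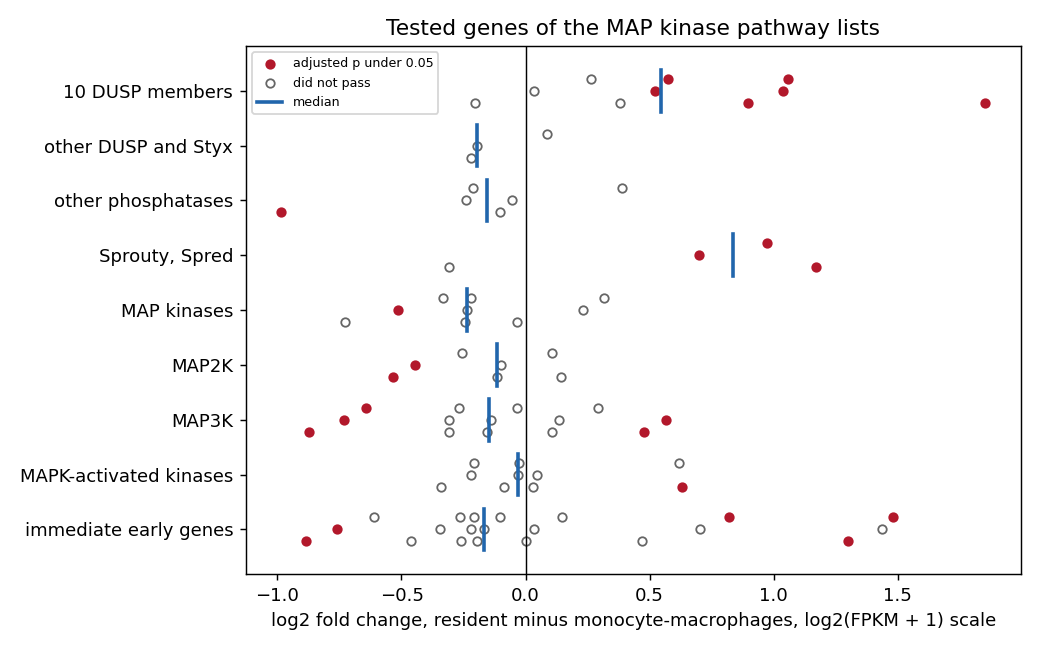
Log2 fold change (resident minus monocyte-macrophages, log2(FPKM + 1) scale) of every tested gene in the 10 phosphatases and the 8 lists of the MAP kinase pathway, with called genes in red, genes that did not pass as open circles and the median as a blue bar. The medians of the phosphatases (0.55) and of the 4 tested Sprouty and Spred genes (0.84, of which Spry1 was tested only through the resident macrophages) lie above 0 and those of the other 7 lists below it.

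Of the 6 called members, 5 kept their call throughout the alternatives tried. Dusp2, Dusp4, Dusp5, Dusp6 and Dusp10 were higher and past the threshold in each of the 16 or 17 alternatives in which they were tested. With a filter of 5 FPKM, or without monocyte-macrophage library 2, Dusp4 passed the filter only through the resident macrophages. There it had to differ, and its call is no support. The log2 fold change lay between 0.93 and 1.16 for Dusp2, between 1.68 and 2.50 for Dusp4, between 0.95 and 1.25 for Dusp5, between 0.41 and 0.61 for Dusp6 and between 0.71 and 1.24 for Dusp10. The highest adjusted p by limma among these was 0.046, for Dusp10. When only the 4 libraries low in Y-linked RNA were compared, 4 members were higher (Dusp2, Dusp5, Dusp6 and Dusp10); Dusp4 did not reach the filter there and Dusp16 did not pass (adjusted p = 0.067). Map2k4, Map2k6, Map3k4, Map3k14, Rps6ka4, Spred2 and Fosl1 did not pass there either (adjusted p between 0.056 and 0.11 by limma). For the other 2 libraries, 1 of each group, no test can be made.

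**Figure D5:**
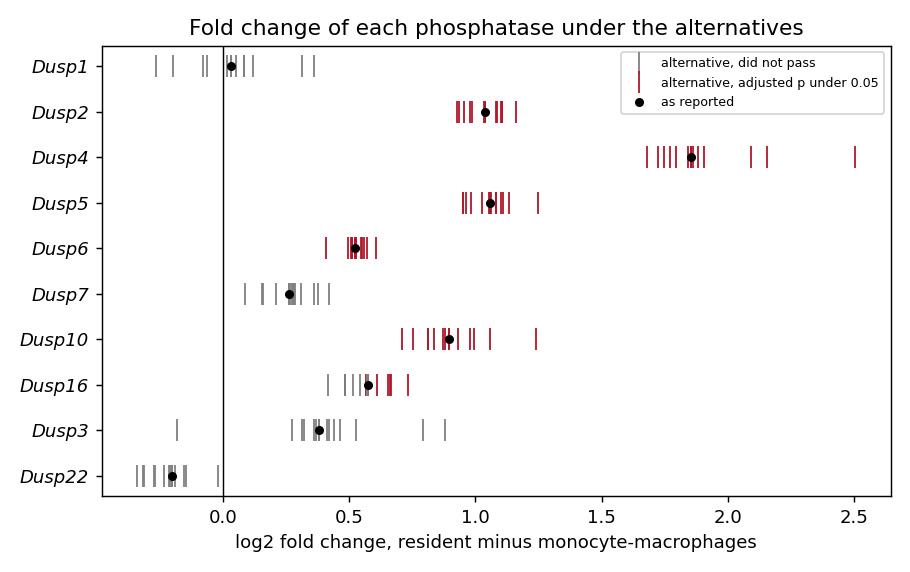
Log2 fold change of each phosphatase gene as reported (black point) and under each alternative (vertical ticks, red where the adjusted p was under 0.05, grey otherwise). Dusp4 lies between 1.68 and 2.50 in each of the 16 alternatives that tested it, while ticks of Dusp1 and Dusp3 fall on both sides of 0.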

How the data were processed

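The values deposited by the authors are FPKM, in 1 table with a column for each of the 6 libraries. Per the submitters' processing notes, FastQC, HISAT2 and featureCounts were used with build mm10; the sources used here give no settings, strand handling or annotation. Whether replicates came from separate mice is not stated, so the p-values cover the spread among these libraries only, part of which may be technical. With GENCODE M21 exon lengths (94.3% of symbols matched), between 40.7% and 44.3% of values under 20 reads were whole within 0.02, so reads were not recovered and fragment numbers are estimates of counting error only. Genes with at least 1 FPKM in at least 3 libraries were tested with limma 3.58.1 (R 4.3.3; trend) on log2(FPKM + 1), which understates changes of low genes, with Benjamini-Hochberg adjustment at 0.05. The fit was tested on simulated data in which every gene had the same spread, a simpler setting than these data. Intervals of fold changes are 95% intervals from the moderated fit. No pair of libraries was identical. All 10 members are named, and of each pathway list up to 4 called genes with the largest change; genes named that did not pass were chosen after their values were seen. The members and lists were chosen with earlier results of these data known. Of 18 listed MAP kinase kinase kinases, 17 were found by symbol. A few single genes of the lists are not reported here. Promoters are from RefSeq (GRCm38.p6) and gene positions from GENCODE M21. Plots were made with matplotlib 3.10.9.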

Additional observations from a re-analysis of the deposited data

How the results depend on the processing

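Of 167 member results over 17 alternatives, 155 kept direction and side of the threshold. Dusp1 turned to -0.080 with median-of-ratios scaling, and leaving out 1 library gave -0.27 to 0.36 for Dusp1 and -0.18 to 0.79 for Dusp3, whose sign turned without monocyte-macrophage library 3; none of these passed. The number of members called higher was 5 to 6 and of members called lower 0 to 0 when 1 library was left out, with a median log2 fold change of 0.51 to 0.73. It was 4 with a filter of 5 FPKM, which Dusp10, Dusp16 and no other called member failed. Dusp4 passed that filter only through the resident macrophages, so its call there was fixed in advance. Over all genes, 1247 were higher with that filter, which tests fewer genes. Leaving out 1 library gave 1001 to 2104 higher and 711 to 1157 lower genes. The 4 libraries with less Y-linked RNA, an alternative chosen after seeing the data, gave 875 and 657. The share of calls that were higher was 65.1% as deposited, 51.5% after median-of-ratios scaling and 51.2% after quantile normalization. These scalings moved the median of all genes by -0.09 and -0.11, to -0.031 and -0.045; the members' median was then 0.45 and 0.51. Counts of MAP kinase kinases called lower fell from 2 to 0 or 1 in 9 alternatives, and those of MAP kinases rose to 3 with quantile normalization. Over all genes 1704 were lower with quantile normalization, against 1204 as deposited. The replicate numbers did not pair the libraries: same-numbered libraries correlated at 0.19, -0.15 and -0.09 in their deviations, and 2 of 6 libraries correlated best with their own number. With the replicate block 5 members were higher (0.57 for Dusp16, adjusted p = 0.063 by limma), beside 1860 higher and 999 lower genes. Depth limits Dusp4 most, with an estimated 32 fragments in its lowest library.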
